A study of Mus musculus with 2 samples.

Results

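The mitochondrial ribosomal protein genes were taken as every gene of the RNA feature list whose name begins with Mrpl or Mrps followed by a number, leaving out the 6 names with -ps, which mark copies of Mrps36, Mrpl23, Mrpl48 and Mrpl27 and leave the counts of these 4 members uncertain. This gave 78 of 55401 genes, 29 with small subunit names (Mrps) and 49 with large subunit names (Mrpl). RNA and open chromatin had been read from the same sorted small intestinal epithelial cells with the 10x Multiome assay, so the 2 libraries are 2 readouts of the cells of 1 mouse. That mouse was 55 weeks old and carried a mutation in TrnA, the alanine tRNA gene of mitochondrial DNA, at a mutation load of 73%. The series title concerns acute colitis. Whether this animal had it is not stated in the labels, and neither is its strain or sex. All values below compare cell classes within this mutant animal: there was no replicate and no wild-type animal, so no test across animals was possible and intervals cover counting error only.

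Mitochondrial ribosomes translate the few respiratory chain subunits that mitochondrial DNA encodes. Their rRNAs, 12S in the small subunit and 16S in the large one, come from mitochondrial DNA, whereas all their proteins are encoded in the nucleus and imported. Many of these proteins descend from bacterial ribosomal proteins and others were added in the mitochondrial lineage. The alanine tRNA affected here decodes on these ribosomes. In the small intestine, stem and dividing progenitor cells of the crypt give rise to absorptive enterocytes on the villus and to secretory goblet, Paneth, enteroendocrine and tuft cells.

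After filters on depth, 9872 of 12363 cell barcodes were kept, with a median of 5591 UMIs (counted RNA molecules), 1547 of them from nuclear genes. Clusters were named from marker lists and are called "-like". Stem-like cells (612) and cycling-like cells (993) together make the 1605 crypt progenitor-like cells. The other classes were 3032 enterocyte-like, 1326 goblet-like, 265 Paneth-like, 212 enteroendocrine-like and 98 tuft-like cells, and 3310 cells (33.5%) were in unnamed clusters. The enterocyte list stood at 25315 UMIs per 1000000 nuclear-encoded UMIs in enterocyte-like and 2624 in progenitor-like cells, and the Paneth list at 214047 in Paneth-like cells against 2356 to 6274 in progenitor-, enterocyte- and goblet-like cells. Transcripts of mitochondrial DNA made up 76.9% of the UMIs of enterocyte-like cells, 54.5% in progenitor-like and 41.0% in Paneth-like cells. RNA levels are therefore given per 1000000 nuclear-encoded UMIs. Doublets were not removed, because the caller marked 0 cells.

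Many members share a start region with a neighbour. Another coding gene started within 1 kb of 32 of the 78 members (41.0%), against 1910 of 11934 expressed coding genes. These are 31 pairs, with Mrps11 and Mrpl46 neighbours of each other. Their starts lay a median of 116 bases apart, and 25 pairs were on opposite strands, 1 was on the same strand and 5 had no strand in the tables used. Several neighbours also act in mitochondria: Twnk, the mitochondrial DNA helicase, beside Mrpl43; Sars2, the mitochondrial seryl-tRNA synthetase, beside Mrps12; the complex I subunits Ndufs6 beside Mrpl36 and Ndufb5 beside Mrpl47; and Ptcd2, which acts on mitochondrial RNA, beside Mrps27. The stretches printed here are the RefSeq sequence (GRCm38.p6, the build of mm10) upstream of the start, up to 200 bases or up to the start of an opposite-strand neighbour. Capitals mark CCGGAAG or its reverse complement, the core bound by ETS factors such as GABPA, or the palindrome bound by NRF1; both factors are known from cell studies for promoters of mitochondrial genes. Mrps27 and Mrps22 are shown because they are the tested members with the highest and the fourth highest RNA ratio of crypt to villus cells, Mrpl43 for its pair of ETS cores beside Twnk, Mrps11 for its start shared with Mrpl46, a gene of the other subunit, and Mrpl9 for the NRF1 letters. The RefSeq starts of Mrps22 and Mrps11 lie 19 and 12 bases from those of the deposited feature list.
Mrps27 (chr13:99344679-99344785, plus strand, up to Ptcd2): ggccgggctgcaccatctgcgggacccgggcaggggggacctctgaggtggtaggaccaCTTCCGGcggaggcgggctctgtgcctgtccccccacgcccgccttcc
Mrps22 (chr9:98601680-98601879, minus strand): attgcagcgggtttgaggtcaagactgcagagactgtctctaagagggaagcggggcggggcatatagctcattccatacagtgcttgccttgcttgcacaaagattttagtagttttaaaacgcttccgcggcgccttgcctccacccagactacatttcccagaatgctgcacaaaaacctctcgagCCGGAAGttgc
Mrpl43 (chr19:45006443-45006557, minus strand, up to Twnk): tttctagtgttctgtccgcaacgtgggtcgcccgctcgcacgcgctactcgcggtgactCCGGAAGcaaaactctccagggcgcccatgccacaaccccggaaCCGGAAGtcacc
Mrps11 (chr7:78783090-78783130, plus strand, up to Mrpl46): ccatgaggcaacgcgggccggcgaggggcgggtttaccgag
Mrpl9 (chr3:94443136-94443335, plus strand): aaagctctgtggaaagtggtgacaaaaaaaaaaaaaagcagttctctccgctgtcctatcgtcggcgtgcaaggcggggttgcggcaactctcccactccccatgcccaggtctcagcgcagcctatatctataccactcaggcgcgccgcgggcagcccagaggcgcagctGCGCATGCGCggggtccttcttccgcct

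Promoter windows from 250 bases before to 50 after the start were found in RefSeq for 69 of the 78 members, and each motif was searched on both strands as plain letters. In 64 of the 69 the window holds the start given in the deposited feature list, while in 5, Mrpl39 and Mrpl20 among them, it lies elsewhere. The ETS core CCGGAAG occurred in the windows of 26 of 69 members (37.7%) and of 1977 of 9687 expressed coding genes (20.4%). AAGATGG, the letters bound by YY1, occurred in 18.8% of members and 8.42% of expressed coding genes. The NRF1 palindrome occurred in 3 members, Mrpl9 among them, which is 4.35% against 2.35%. GGGCGG, bound by SP factors, was less frequent in members (49.3% against 68.0%), with 65.4% in small and 39.5% in large subunit genes. CCAAT occurred in 39.1% and 43.8%, and TATAAA in 7.25% and 9.34%. The median GC content of the windows was 58.7% in members and 60.3% in expressed coding genes. The shares describe letters in a window and are not binding sites.

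The unnamed clusters 0 and 3 held 3931 and 3331 member UMIs per 1000000 nuclear-encoded UMIs, more than any named class. Among the named classes, the summed RNA of the 78 members was highest in the crypt on this scale. It stood at 2762 UMIs per 1000000 in progenitor-like cells (95% counting interval 2720 to 2804), with 2889 in the cycling-like and 2510 in the stem-like part. Tuft-like cells followed with 2252 (2076 to 2439). Enterocyte-like cells held 2007 (1966 to 2048), enteroendocrine-like cells 1938 (1825 to 2056) and goblet-like cells 1899 (1857 to 1941), and the interval of the enteroendocrine-like cells overlapped both neighbours. Paneth-like cells were lowest with 1776 (1693 to 1863), a range that overlapped goblet-like and enteroendocrine-like cells. Genes of the Paneth list took 214047 of each 1000000 nuclear-encoded UMIs in Paneth-like cells and 5983 in enterocyte-like cells. That lowers the share left for every other gene in Paneth-like cells, and levels without these genes were not computed. The order of the classes depends on the denominator: per 1000000 UMIs of all kinds, mitochondrial ones included, progenitor-like cells stood at 1258, Paneth-like cells at 1047 and enterocyte-like cells were lowest at 463. Per cell, a progenitor-like cell held a mean of 10.5 member UMIs among 3795 nuclear-encoded UMIs, and an enterocyte-like cell 3.05 among 1522.

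**Figure D1:**
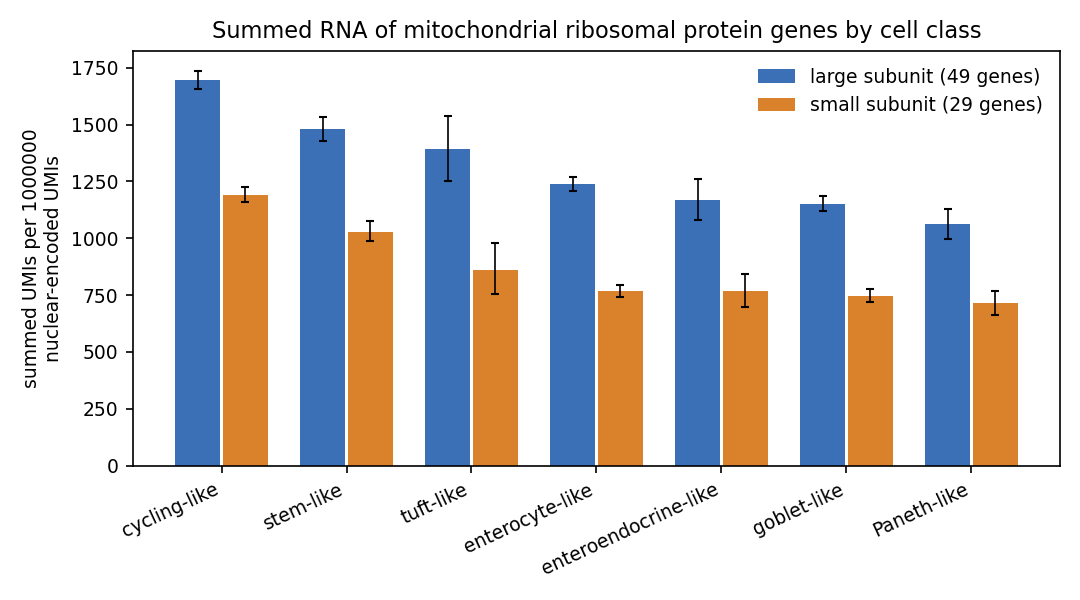
Summed UMIs of the 49 large subunit and 29 small subunit genes per 1000000 nuclear-encoded UMIs in each cell class (bars, with 95% counting intervals; 1 mouse). Of the classes shown, which leave out the unnamed clusters, both subunits are highest in cycling-like and lowest in Paneth-like cells on this scale. In Paneth-like cells genes of the Paneth list take 214047 of each 1000000 nuclear-encoded UMIs, which lowers the share of all other genes. Per UMI of any kind enterocyte-like cells are the lowest of these classes instead.

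Progenitor-like against enterocyte-like cells was the comparison with the most counts. A gene was counted as higher or lower where the classes differed at least 1.5-fold per nuclear-encoded UMI, the exact 95% counting interval of the ratio excluded no difference, and both classes together held at least 20 UMIs. By this rule 27 of 77 members were higher in progenitor-like cells and 2 were lower, while 41.8% of all 12966 tested nuclear genes were higher and 20% lower. The share of members higher was thus below that of all genes, and the share lower was also below it. The median log2 ratio was 0.36 over members and 0.43 over all tested genes, and 36 of the 77 members lay above the median gene. Centred on the median gene the members' median turned to -0.07, and per UMI of any kind it was 1.34. Each of these settings shifts every nuclear gene in the comparison by the same amount. The classes also differed in depth, with a median of 3226 nuclear-encoded UMIs in progenitor-like and 972.5 in enterocyte-like cells. With every cell thinned to 500 nuclear-encoded UMIs the members' median was 0.31, and without cells of over 80% mitochondrial UMIs it was 0.45.

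Of the 29 genes with small subunit names, 13 were higher in progenitor-like cells and 1 was lower (all genes, 41.8% and 20%). Their median log2 ratio was 0.53. Mrps27, a pentatricopeptide repeat protein with no bacterial counterpart, had 349 UMIs in progenitor-like cells and 39 in enterocyte-like cells. Progenitor-like cells held 57.3 UMIs of it per 1000000 and enterocyte-like cells 8.45, while the level in the secretory classes was 14.8 in Paneth-, 17.5 in goblet-, 24.7 in enteroendocrine- and 26.1 in tuft-like cells. By these levels progenitor-like cells were above every other class and enterocyte-like cells below every other class. The Paneth-like level rests on 14 UMIs, and its log2 ratio to enterocyte-like cells had an interval that included 0 (-0.19 to 1.72). For Mrps27 the log2 ratio of progenitor- to enterocyte-like cells was 2.76 (2.28 to 3.28), or 6.78-fold. Mrps9, a homolog of bacterial uS9, had 988 and 255 UMIs in these classes. Its level was 162 UMIs per 1000000 in progenitor-like and 55.3 in enterocyte-like cells, with 66.0 in goblet-like, 70.6 in Paneth-like, 91.7 in enteroendocrine-like and 101 in tuft-like cells. Here too progenitor-like cells were highest and enterocyte-like cells lowest by level, with a log2 ratio of 1.55 (1.35 to 1.76). The interval of enterocyte-like cells (48.7 to 62.5) overlapped those of goblet-like (58.4 to 74.3) and Paneth-like cells (54.7 to 89.6).

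Mrps22, a mitochondria-specific protein, had 125 against 34 UMIs and a log2 ratio of 1.48 (0.92 to 2.07). Mrps10, the uS10 homolog, had 260 against 72 UMIs and a ratio of 1.45 (1.07 to 1.85). Mrps18b, a mammalian relative of bacterial bS18 (counted below with the members without a homolog), had 159 against 52 UMIs and a ratio of 1.21 (0.75 to 1.69). Of the 6 classes, each of these genes was lowest in enterocyte-like cells, and the Paneth-like cells, with 7 UMIs of Mrps22, came close for that gene.

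Several genes with small subunit names did not share this direction. Mrps33 had 170 against 161 UMIs and Mrps21, the bS21 homolog, 234 against 211, with log2 ratios of -0.32 and -0.25 (-0.53 to 0.02), neither of them at 1.5-fold. Mrps36 was the lowest member of all, at 23.6 UMIs per 1000000 in progenitor-like and 45.5 in enterocyte-like cells (144 and 210 UMIs; log2 ratio -0.94, -1.26 to -0.63). Its level was 22.1 in goblet-like, 14.8 in Paneth-like, 21.2 in enteroendocrine-like and 29.8 in tuft-like cells. By level enterocyte-like cells thus stood above every other class on this scale, though the small classes held few UMIs. Per UMI of any kind the ratio of progenitor- to enterocyte-like cells was 0.04. Despite its name, the product of Mrps36 is known from biochemical work as a component of the 2-oxoglutarate dehydrogenase complex and not of the ribosome. Mrps30 and Mrps18a are known from mitoribosome structures to lie in the large subunit. Mrps30 had 149 against 44 UMIs (log2 ratio 1.36, 0.87 to 1.88) and Mrps18a had 170 against 83 UMIs, 27.9 against 18.0 UMIs per 1000000.

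Of the 48 tested genes with large subunit names, 14 were higher in progenitor-like cells and 1 was lower (all genes, 41.8% and 20%). Their median log2 ratio was 0.29. Mrpl19, the bL19 homolog, had 167 against 39 UMIs, 27.4 against 8.45 UMIs per 1000000, and a log2 ratio of 1.70 (1.19 to 2.24). Its level was 12.6 in goblet-like, 8.43 in Paneth-like, 8.82 in enteroendocrine-like and 11.2 in tuft-like cells, so that by level progenitor-like cells were above all others. The Paneth-, enteroendocrine- and tuft-like levels rest on 8, 5 and 3 UMIs, and the tuft-like interval (2.31 to 32.7) held the progenitor-like level. The mitochondria-specific Mrpl37 and Mrpl38 had 220 against 61 and 248 against 73 UMIs, with log2 ratios of 1.45 (1.04 to 1.88) and 1.36 (0.98 to 1.76). Mrpl1, the protein of the uL1 stalk where tRNAs leave the ribosome, had 480 against 167 UMIs and a ratio of 1.12 (0.87 to 1.39). Unlike the others, Mrpl1 was highest in enteroendocrine-like cells, at 106 UMIs per 1000000 (80.8 to 136) against 78.8 (71.9 to 86.2) in progenitor-like cells. These intervals overlapped.

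At the other end, Mrpl54 had 145 against 166 UMIs and a log2 ratio of -0.60 (-0.93 to -0.27). It passed the limit by little (1.51-fold), and per UMI of any kind its ratio was 0.39. Mrpl55 had 72 against 77 UMIs (-0.50) and Mrpl20, the bL20 homolog, 207 against 202 (-0.37, -0.65 to -0.08). Mrpl27, the bL27 homolog, Mrpl34, the bL34 homolog, Mrpl43 and Mrpl14, the uL14 homolog, had ratios from -0.30 to -0.20, and the interval of each included 0. These genes did not reach 1.5-fold. Mrpl53 had 8 UMIs in progenitor-like and 3 in enterocyte-like cells and was too sparse to count. It had 0 UMIs in Paneth-, enteroendocrine- and tuft-like cells.

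**Figure D2:**
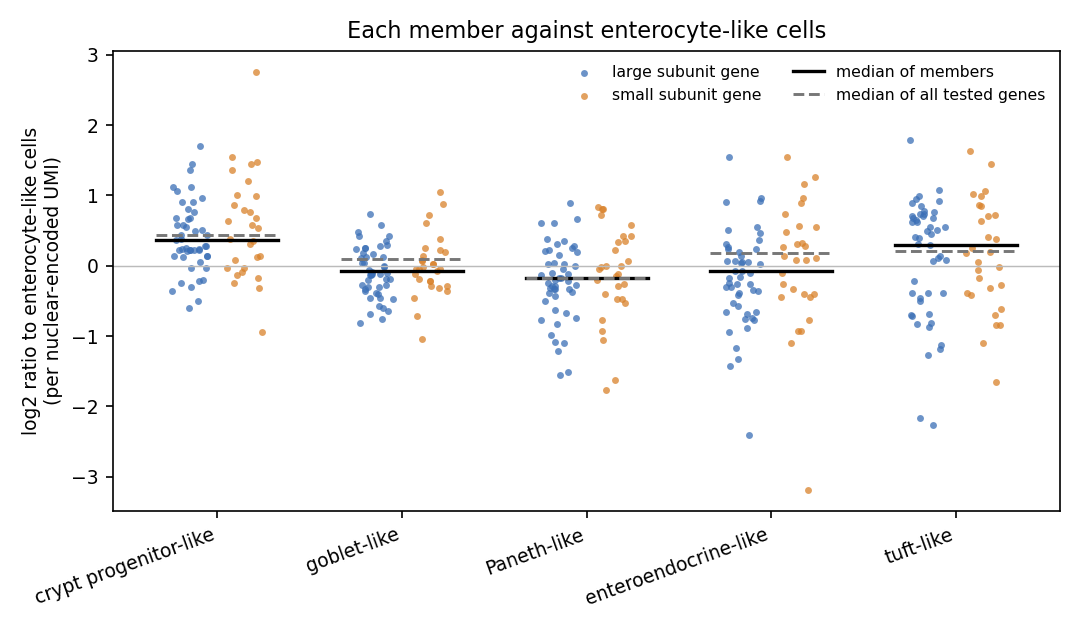
Log2 ratio of each of the 77 tested members to enterocyte-like cells, per nuclear-encoded UMI, in 5 classes (1 point per gene; black line, median of members; dashed line, median of all tested nuclear genes). The members' median lies at 0.36 in progenitor-like cells, just under the median gene at 0.43, and Mrps27 is highest at 2.76. The lowest points in enteroendocrine- and tuft-like cells, Mrps23 and Mrpl47, rest on 1 UMI each.

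Grouped by origin, the 46 members with a bacterial homolog had a median log2 ratio of 0.23, with 11 higher and 0 lower. The 31 tested members without such a homolog had a median of 0.63, with 16 higher and 2 lower. Over all tested nuclear genes the median was 0.43, with 41.8% higher and 20% lower. The summed UMIs of members with and without a homolog differed less, with log2 ratios of 0.43 (0.38 to 0.47) and 0.52 (0.46 to 0.59). The assignment to bacterial families came from textbook nomenclature. Of the relatives of bS18, Mrps18c was counted with a homolog and Mrps18a and Mrps18b without.

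Small subunit UMIs per large subunit UMI numbered 0.70 in progenitor-like cells (0.68 to 0.72) and 0.62 in enterocyte-like cells (0.59 to 0.65). The ratio was 0.65 in goblet-like, 0.67 in Paneth-like, 0.66 in enteroendocrine-like and 0.62 in tuft-like cells. Each of these had an interval that overlapped both that of enterocyte-like and that of progenitor-like cells. The overlap of goblet-like cells (0.621 to 0.680) with progenitor-like cells (0.679 to 0.722) was narrow. Without Mrps27 and Mrps9, chosen for their high progenitor ratios with nothing taken from the large subunit, so that the removal itself narrows the difference, the values were 0.565 and 0.568 in progenitor- and enterocyte-like cells. Among the 68 members with a genomic span under 20 kb they were 0.541 and 0.546. With Mrps18a and Mrps30 placed in the large subunit, Mrps36 left out and the 5 mitoribosomal proteins of other names added to their subunits, they were 0.805 and 0.652, and Ptcd3 then adds 1002 and 169 UMIs to the small subunit. The ratio of 12S to 16S rRNA UMIs (mt-Rnr1 to mt-Rnr2) was 0.69 in progenitor-like and 0.70 in enterocyte-like cells, 0.72 in goblet- and enteroendocrine-like, 0.77 in tuft-like and 0.80 in Paneth-like cells. These rRNAs made up 61.7% of all UMIs in enterocyte-like cells, 49.3% in progenitor-like and 33.5% in Paneth-like cells, and since the libraries were primed on polyA RNA these shares are not amounts of rRNA.

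The members are short genes, with a median span of 7690 bases against 25298 for expressed coding genes, and the longer ones had the higher progenitor ratios. The 10 members of 20 kb or more had a median log2 ratio of 0.95 with 8 higher, and the 13 members of 10 to 20 kb a median of 0.63 with 7 higher. The 30 members of 5 to 10 kb and the 24 under 5 kb had medians of 0.24 and 0.23, with 7 and 5 higher. From the longest to the shortest bin, the members higher were 80%, 53.8%, 23.3% and 20.8%, and the coding genes higher were 47.5%, 41.8%, 32.0% and 23.9%. The medians of all tested coding genes were 0.54, 0.43 and 0.16, and close to 0 under 5 kb. Across the 77 members Spearman's rho of ratio and log10 span was 0.37 and Pearson's r was 0.43, against 0.15 and 0.16 across 11101 coding genes. The points share the same cells and libraries, and genes are not independent. Mrps6 spans 53892 bases and went against this order, with 48 and 33 UMIs and a ratio of 0.14 (-0.53 to 0.83). Summed over members under 20 kb, progenitor-like cells held 2025 UMIs per 1000000 and enterocyte-like cells 1644; over the 10 longer members they held 737 and 362. In Paneth-like against progenitor-like cells the relation had the opposite sign with rho -0.53 (both comparisons use the same progenitor-like cells), and in goblet-like against enterocyte-like cells it was 0.09.

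**Figure D3:**
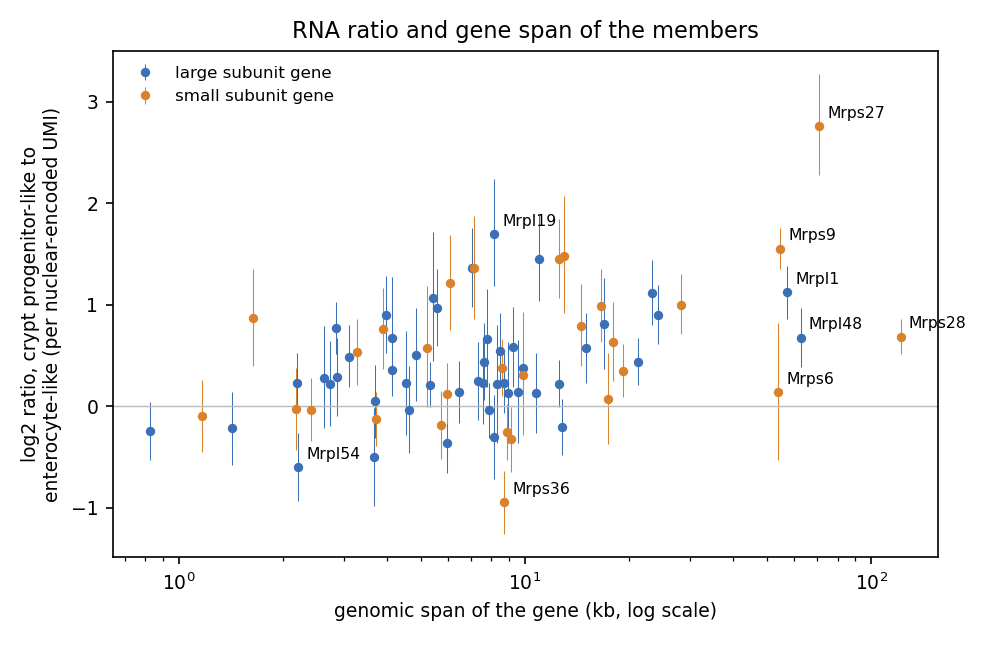
Log2 ratio of progenitor-like to enterocyte-like cells for each of the 77 tested members (points with 95% counting intervals) against the genomic span of the gene on a log scale. The 10 members of 20 kb or more have a median of 0.95, with Mrps27 highest and Mrps6 near 0, and members under 5 kb have a median of 0.23.

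Genes that build and serve the mitochondrial ribosome were compared in the same way. The 5 mitoribosomal proteins with other names spread widely. Ptcd3, a pentatricopeptide repeat protein of the small subunit, had 1002 against 169 UMIs and a log2 ratio of 2.17 (1.93 to 2.41), and Dap3, a GTP-binding small subunit protein, 435 against 165 UMIs and 1.00 (0.74 to 1.27). Chchd1 and Gadd45gip1 had ratios of 0.38 each, and Aurkaip1 had 118 against 143 UMIs and -0.68 (-1.04 to -0.32).

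Of 30 assembly and rRNA-modifying factors, 20 were higher in progenitor-like cells and 1 was lower (all genes, 41.8% and 20%). Their median log2 ratio was 1.12 against 0.43 for all genes. Fastkd2, an RNA-binding protein of large subunit assembly, had 276 against 36 UMIs (2.54, 2.03 to 3.08). Mettl15, which methylates 12S rRNA, had 706 against 99 UMIs (2.43, 2.13 to 2.75). Mrm3, a 16S rRNA methyltransferase, had 79 against 2 UMIs, a ratio of 4.90 whose counting interval reaches up to 7.97 since it rests on 2 UMIs. The related Mrm1 had 65 against 75 UMIs (-0.61, -1.11 to -0.11). Slirp, the partner of Lrpprc in mitochondrial mRNA stability, and Trub2, a pseudouridine synthase, had ratios of -0.25 and -0.19. The list summed to 1245 UMIs per 1000000 in progenitor-like and 483 in enterocyte-like cells, with the secretory classes between, from 568 in Paneth-like to 799 in enteroendocrine-like cells. Per assembly factor UMI there were 2.22 member UMIs in progenitor-like cells and 4.15 in enterocyte-like cells.

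Of 14 tested mitochondrial translation factors, 11 were higher and 0 were lower (all genes, 41.8% and 20%), with a median of 0.84. Guf1, a translational GTPase, had 379 against 99 UMIs (1.54, 1.21 to 1.87), Mtrf1l, a release factor, 283 against 82 (1.39, 1.03 to 1.76), and Gfm1, the elongation factor G of mitochondria, 377 against 113 (1.34, 1.03 to 1.65). The lowest were Letm1, an inner membrane ion transport protein, with 363 against 389 UMIs (-0.50), the initiation factor Mtif3 (0.36) and the methionyl-tRNA formyltransferase Mtfmt (0.40).

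Nuclear-encoded subunits of the respiratory chain and ATP synthase were lower in sum in progenitor-like cells per nuclear-encoded UMI, whereas per 1000000 UMIs of any kind they stood at 4081 there and 2655 in enterocyte-like cells. Of 73 subunits, 2 were higher and 15 lower per nuclear-encoded UMI, with a median log2 ratio of -0.36. The share lower is near that of all genes (20%), while few were higher (all genes, 41.8%). Uqcrb of complex III had 409 against 618 UMIs (log2 interval -1.18 to -0.81), Ndufa6 of complex I 508 against 716 (-0.90, -1.06 to -0.73) and Ndufa1 236 against 327 (-0.87, -1.12 to -0.62). The 2 higher genes were Atp5g2, a gene for subunit c of ATP synthase, with 166 against 44 UMIs (1.52, 1.03 to 2.03), and Atp5o with 63 against 20 (1.26, 0.51 to 2.06). The complex I core subunit Ndufs1 had 916 against 546 UMIs and a ratio of 0.35. The summed list stood at 11517 UMIs per 1000000 in enterocyte-like and 8963 in progenitor-like cells, so that there were 0.31 member UMIs per respiratory chain UMI in progenitor-like cells and 0.17 in enterocyte-like cells, with goblet-like cells at 0.24 and Paneth-like cells at 0.29. Cytosolic ribosomal proteins had a median of 0.31, near the members' 0.36, but 16 of 89 were higher and 1 lower (all genes, 41.8% and 20%). Their summed log2 ratio was 0.32 (0.31 to 0.33) against 0.46 (0.42 to 0.50) for the members. Members numbered 6.41 UMIs per 100 cytosolic ribosomal protein UMIs in progenitor-like and 5.81 in enterocyte-like cells.

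In goblet-like against enterocyte-like cells the members' median log2 ratio was -0.07, where the median gene stood at 0.09; per UMI of any kind it turned to 0.94, and at clustering resolution 0.5 to 0.071. Mrps27, Mrps10, Mrpl1, Mrps22 and Mrps18b were the 5 members counted as higher (all genes, 23.5%), and 6 were lower (all genes, 17.3%). Mrps27 had 72 against 39 UMIs (1.05, 0.47 to 1.65), Mrps10 118 against 72 (0.87, 0.44 to 1.32), Mrpl1 248 against 167 (0.73, 0.44 to 1.02) and Mrps22 50 against 34 (0.72, 0.06 to 1.39). The lowest were Mrps36 with 91 against 210 UMIs (-1.04, -1.42 to -0.68), Mrpl34 with 100 against 196 (-0.81, -1.17 to -0.45), Mrpl40 with 44 against 83 (-0.75, -1.31 to -0.21) and Mrps6 with 18 against 33, whose interval included 0. Against progenitor-like cells, 34 of 77 members were lower in goblet-like cells and 0 higher, where 34.7% of all genes were lower and 16.9% higher. Mrps27 (-1.72), Mrpl3 (-1.36), Mrps9 (-1.30) and Mrpl38 (-1.18) were lowest there, and Mrps21, Mrpl20, Mrps18c and Mrpl43 highest with 0.28 to 0.10, none of them counted as higher. Both comparisons use the same goblet-like cells.

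In Paneth-like against enterocyte-like cells the members' median was -0.17 and so was that of all genes, and per UMI of any kind the members' median turned to 1.18. Mrpl13, the uL13 homolog, with 43 against 113 UMIs (0.89, 0.35 to 1.41) and Mrps10 with 26 against 72 (0.81, 0.11 to 1.48) were the 2 members higher (all genes, 20.8%), and 10 were lower (all genes, 28.8%). Mrps18b and Mrps27 were next highest with 19 and 14 UMIs and intervals that included 0. Mrps36 had 14 against 210 UMIs (-1.63, -2.52 to -0.85), Mrpl33, the bL33 homolog, 11 against 157 (-1.55, -2.59 to -0.67) and Mrpl27 7 against 97 (-1.51, -2.86 to -0.41), while Mrps6 had 2 against 33, an interval that included 0. Against progenitor-like cells, 31 of 77 members were lower and 0 higher (all genes, 36.2% and 7.06%). The lowest ratios were those of Mrps27 (-1.96), Mrps6 (-1.90), Mrpl33 (-1.78) and Mrpl19 (-1.70). Mrps6 had 2 against 48 UMIs and an interval that included 0 (-4.99 to 0.03), so it is not among the 31. Mrpl32, Mrps33, Mrpl58 and Mrps18c were highest, and the interval of each included 0.

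In enteroendocrine-like cells, with 1099 member UMIs in all, 6 members were higher and 7 lower than in enterocyte-like cells (all genes, 28.9% and 18.1%), with a median of -0.08 (1.08 per UMI of any kind) against 0.19 for all genes. Mrpl1 had 60 against 167 UMIs (1.55, 1.10 to 1.98), Mrps27 14 against 39 (1.55, 0.55 to 2.46), Mrps22 10 against 34 (1.26, 0.08 to 2.31) and Mrps5, the uS5 homolog, 25 against 91 (1.16, 0.46 to 1.81). Mrps23 had 1 against 74 UMIs, a ratio of -3.18 with a counting interval from -8.51 to -0.66, and Mrpl23 1 against 43, Mrpl18 7 against 153 and Mrpl39 3 against 61. The intervals of Mrpl23 and Mrpl39 included 0, and neither was counted as lower. In tuft-like cells, with 604 member UMIs, 5 members were higher and 2 lower (all genes, 21.7% and 15.2%), with a median of 0.30 against 0.21. Mrpl46 had 11 against 55 UMIs (1.78, 0.70 to 2.73), Mrps27 7 against 39 (1.63, 0.22 to 2.80), Mrps30 7 against 44 (1.45, 0.06 to 2.62), and Mrpl1 and Mrps9 were the other two higher members. The lower ones were Mrpl15 and Mrpl12, each with 7 UMIs. Mrpl22 with 7 UMIs was the fourth highest, and Mrpl47, Mrpl55, Mrps26 and Mrpl43 with 1 to 3 UMIs were lowest; the interval of each included 0.

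In cycling-like against stem-like cells the members' median log2 ratio was 0.16, where the median gene was at 0, and 58 of 77 members lay above the median gene. Counted as higher were 6 members and as lower 0 (all genes, 6.07% and 9.19%). Mrps26 had 106 against 24 UMIs (1.16, 0.51 to 1.87), Mrpl54 112 against 33 (0.78, 0.21 to 1.39) and Mrps16, the bS16 homolog, 152 against 48 (0.68, 0.21 to 1.18). Mrps11 had 49 against 15 UMIs, an interval that included 0. The lowest, Mrpl22, Mrps6, Mrpl21 and Mrpl44, had ratios from -0.38 to -0.31 with intervals that included 0. Mrpl54 was thus higher in cycling- than in stem-like cells, while it was lower in both together than in enterocyte-like cells. Over classes, 33 of the 78 members were highest in progenitor-like, 24 in tuft-like, 11 in enteroendocrine-like, 9 in enterocyte-like and 1 in Paneth-like cells, and low counts in the small classes enter that order. Mrpl24 and Mrps9 were the 2 members with at least 20 UMIs in each of the 6 classes; Mrpl24 ranged from 48.5 UMIs per 1000000 in Paneth-like to 82.0 in tuft-like cells.

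The classes were not uniform. Among enterocyte-like cells the members' level was alike in the lower bins of the share of mitochondrial UMIs and higher in the upper bins. It was 1893 UMIs per 1000000 (1799 to 1991) in 415 cells under 50% and 1909 (1855 to 1964) in 1212 cells at 50 to 80%. Above 80% it was 2161 in 980 cells at 80 to 90% and 2602 in 425 cells above 90%. Depth was not held equal over these bins. Over the same bins the small to large subunit ratio was 0.67, 0.63, 0.60 and 0.53 and the respiratory chain list went from 10026 to 14521. In progenitor-like cells the level was 2718 under 50% and 2800 at 50 to 80%, and in goblet-like cells 1890 and 1891. The 4 enterocyte-like clusters did not follow the order of their mitochondrial shares throughout. They held 2259 (cluster 1, 85.4% mitochondrial UMIs), 2178 (cluster 10, 64.3%), 1803 (cluster 7, 80.1%) and 1701 (cluster 6, 67.9%). Cluster 7 had villus tip genes at 21857 UMIs per 1000000. The goblet-like clusters ranged from 1475 (cluster 5) through 2013 (cluster 11) to 2302 (cluster 9), so the spread within the class exceeded the distance between goblet-like and enterocyte-like cells. Cells with doublet scores in the highest 8% made up 69.6% of cluster 11 and 95.7% of the stem-like cluster 15, and their part in these levels was not tested beyond leaving those clusters out, which gave 1805 for goblet-like cells.

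**Figure D4:**
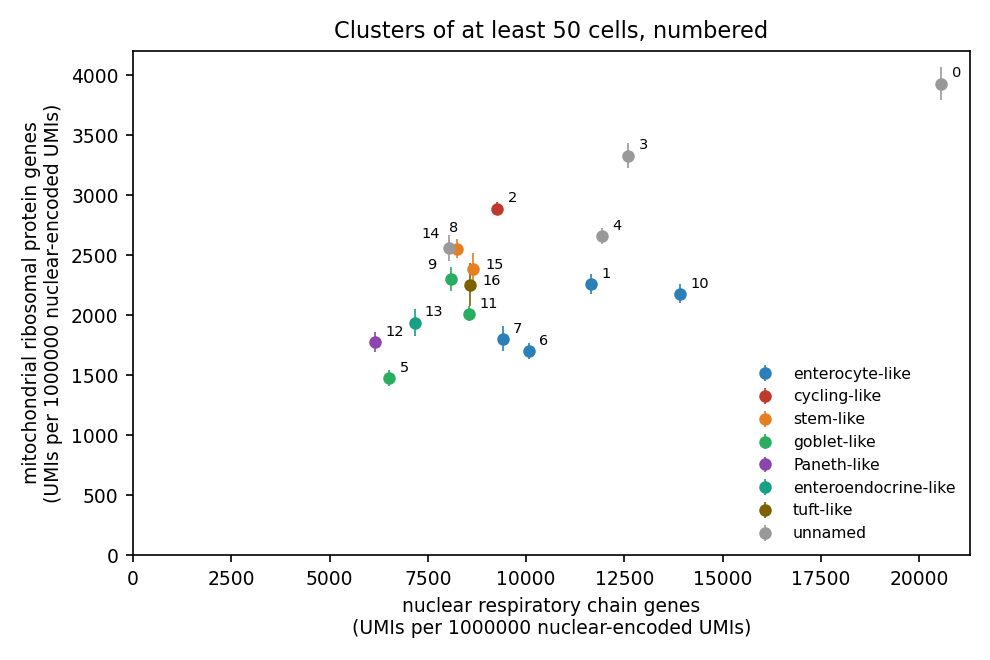
Summed members against summed nuclear respiratory chain genes, both in UMIs per 1000000 nuclear-encoded UMIs, for each cluster of at least 50 cells (points with 95% counting intervals of the members, coloured by class, numbered). Cycling-like cluster 2 holds 2889 member UMIs at 9270 respiratory chain UMIs, and enterocyte-like cluster 10 holds 2178 at 13920.

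Every member had an ATAC peak within 1 kb of its start, as did 96.4% of 11934 expressed coding genes, and 67 members had a single such peak. Promoter fragments are given per 1000000 fragments in peaks. The median promoter of the members stood at 29.0 in progenitor-like, 23.8 in enterocyte-like, 26.9 in goblet-like, 27.1 in Paneth-like, 33.4 in enteroendocrine-like and 33.6 in tuft-like cells. Progenitor-like against enterocyte-like cells gave a median log2 ratio of 0.22 over members (0.079 with promoter fragments as library size) and 0.20 over all 12883 promoters, and 10 of 77 members were higher and 0 lower, against 22.3% and 4.19% of all promoters. Mrpl21 had 596 fragments in progenitor-like and 267 in enterocyte-like cells, 24.7 against 11.7 per 1000000 (log2 ratio 1.08, 0.87 to 1.29). Mrpl28 had 552 against 265 fragments (0.98, 0.77 to 1.20), Mrps18a 413 against 202 (0.95, 0.71 to 1.20) and Mrps31 383 against 197 (0.88, 0.63 to 1.14). The lowest were Mrpl2 with 2012 against 2328 fragments (-0.29, -0.38 to -0.20), Mrpl39 with 879 against 1013 (-0.28, -0.41 to -0.15), Mrpl32 with 908 against 989 (-0.20, -0.33 to -0.07) and Mrpl47 with 1330 against 1429 (-0.18, -0.29 to -0.07), all within 1.5-fold. Klc4, which starts 207 bases from Mrpl2, had 170 against 527 RNA UMIs.

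Mrps27, with an RNA ratio of 2.76, had 800 against 664 promoter fragments, 33.1 against 29.0 per 1000000 (0.19, 0.04 to 0.34). Mrps9 had 903 against 816 fragments (0.07, -0.07 to 0.21) and Mrps36, the member with the lowest RNA ratio, 1069 against 964 (0.07, -0.06 to 0.20). Mrps22 had 433 against 233 fragments (0.82, 0.58 to 1.05) beside its RNA ratio of 1.48. Across 77 members rho was 0.15 and r was 0.15; the points share cells, and 32 members have a neighbour's start within 1 kb. Over 28 pairs of neighbours with enough UMIs, rho of their RNA ratios was -0.06 and r was 0.01. Twnk had 173 against 38 UMIs (1.79) beside Mrpl43 at -0.22, and Tcp1, a subunit of the cytosolic chaperonin, 1029 against 278 (1.49) beside Mrpl18 at 0.14, while Ptcd2 had 211 against 67 (1.25) beside Mrps27. Members with the ETS core had a median RNA ratio of 0.23 (25 genes) and those without it 0.44 (43 genes). In enteroendocrine- and tuft-like against enterocyte-like cells, 22 and 23 members had higher promoters (all promoters, 26.4% and 25%), with medians of 0.36 and 0.40 against 0.31 and 0.35 over all promoters (0.11 in each with promoter fragments as library size), and 1 and 0 had lower ones (4.91% and 4.01%). In goblet- and Paneth-like against enterocyte-like cells, 6 and 10 were higher (13.3% and 19.3%) and 0 lower in either (3.53% and 4.17%). Against progenitor-like cells, goblet-like cells had 0 higher and 1 lower (3.34% and 7.95%) and Paneth-like cells 0 of each (2.76% and 3.2%), and cycling- against stem-like cells also had 0 of each (0.47% and 2.04%).

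**Figure D5:**
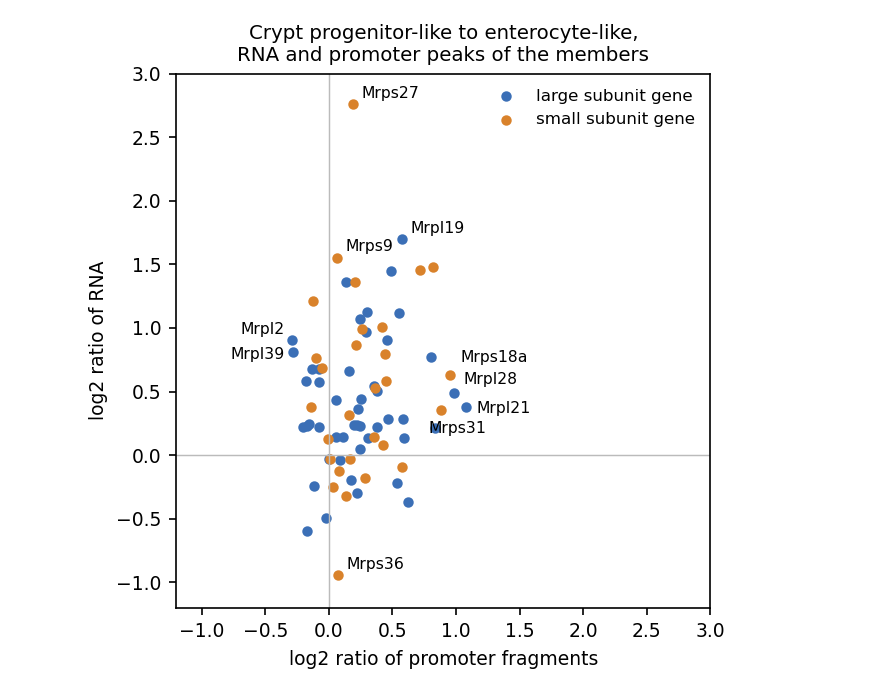
Log2 ratio of RNA against log2 ratio of promoter fragments, progenitor-like to enterocyte-like cells, for the 77 tested members (1 point per gene). Promoter ratios lie between -0.29 and 1.08 while RNA ratios reach 2.76 for Mrps27, whose promoter ratio is 0.19.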

How the data were processed

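The deposited values are raw counts per cell and feature, UMIs per gene and counts per ATAC peak, made by the authors with Cell Ranger ARC 2.0.2 on mm10, per the submitters' processing notes; the gene annotation is not given in the sources used here. Epithelium was detached with EDTA and dissociated, per the labels' protocols, and the cells were stained for CD45, CD31, TER-119 and CD326 and sorted (gates not stated), lightly fixed and taken through a Multiome protocol that retains mitochondrial DNA.

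Barcodes with at least 500 UMIs, 300 genes and 1000 peak counts were kept. Scrublet marked 0 cells, so it did not work and doublets remain. Cells were clustered without the members and the other listed genes (27896 genes held out): 1500 variable genes, 30 principal components, 15 neighbours, Leiden resolution 1 (scanpy 1.11.5, leidenalg 0.10.2). Naming thresholds were set after the clusters had been seen: a marker list's median log2 ratio of at least 0.4, 0.4 above the next list, and at least 3 detected markers. Clusters more than 3-fold below the median depth also needed 2 own markers among their 10 leading genes, which left cluster 0 unnamed. Clusters whose leading genes pointed to another class were left unnamed too, cluster 14 among them. Both clusters passed the first thresholds. UMIs were summed per class (1 sample each) and compared with exact conditional binomial 95% intervals (scipy 1.17.1), with a count of 0 set to 3 counts for a ratio. Of the nonzero peak counts 87.6% were even, so fragments are counts divided by 2 and rounded up, summed over peaks within 1 kb of a start. The background over 6554 tested genes held out of the clustering was 41.2% higher and 20.2% lower in progenitor-like against enterocyte-like cells.

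The members and gene lists were chosen with earlier results of these data known. Genes were named by rule: the 10 highest and 10 lowest ratios in progenitor- against enterocyte-like cells, 4 and 4 in the other comparisons and for promoters, 3 and 3 per pathway list, members with the most even counts over classes, and members whose place differs from their name. A few others are named to complete a count or for a shared start, after their values were seen. Library size, minimum counts, cell filters, clustering, cell weighting, depth, subunit assignment and promoter windows were varied. Intervals and calls were run on simulated sums with counting error only, the error they assume. That checks the calculation and cannot show how they hold with the spread between cells.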

Additional observations from a re-analysis of the deposited data

How the results depend on the processing

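No paired analysis was possible because both libraries come from the cells of 1 mouse. All alternatives listed at the outset were run. Those called added were chosen after seeing the data. Levels are member UMIs per 1000000, medians are log2 ratios, ratios are small to large subunit UMIs, and the cause of each shift was not tested unless the alternative's construction gives it.

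With UMIs of all kinds as library size, the median was 1.34 for progenitor- against enterocyte-like cells (74 members higher, 0 lower), 0.94 for goblet-, 1.18 for Paneth- (turned from -0.17), 1.08 for enteroendocrine- and 1.22 for tuft- against enterocyte-like cells, and -0.21 for Paneth- against progenitor-like cells. Mrps36 then turned to 0.037 and Mrpl54 to 0.39. Levels were 1258 in progenitor-, 463 in enterocyte-, 878 in goblet-, 1047 in Paneth-, 995 in enteroendocrine-, 984 in tuft-, 1092 in stem- and 1347 in cycling-like cells. Centred on the median gene, the progenitor median turned to -0.073 (12 higher, 11 lower), and the others were -0.00052 for Paneth- against enterocyte-like, -0.23 for goblet- and -0.015 for Paneth- against progenitor-like cells. Under every other alternative the progenitor median stayed between 0.21 and 0.45, with 18 to 32 members higher. UMIs of all kinds as library size, and centring, each shift the ratios of all nuclear genes in a comparison by the same amount. Shares over all genes were not counted under any alternative, so these member counts have no background beside them.

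Without cells over 80% mitochondrial UMIs, 1 member was lower and the enterocyte-like level was 1905. Without the highest 8% of doublet scores, 1 was lower, Paneth- against progenitor-like cells gave -0.72 and the goblet-like level was 1825. At resolution 0.5, 1 was lower, goblet- against enterocyte-like cells turned from -0.07 to 0.071, and levels were 1933 in enterocyte-, 2016 in goblet- and 2828 in cycling-like cells. With ATAC clusters, Paneth- and enteroendocrine- against enterocyte-like cells gave -0.42 and -0.39, levels were 2229 in enterocyte-, 1978 in goblet- and 1789 in enteroendocrine-like cells, and ratios were 0.586 in enterocyte-, 0.588 in Paneth-, 0.517 in tuft- and 0.676 in cycling-like cells. With each cell weighing the same, medians against enterocyte-like cells were 0.22 for progenitor-, -0.24 for goblet-, -0.32 for Paneth- and -0.39 for enteroendocrine-like cells, levels 2206 in enterocyte- and 2582 in stem-like cells, and the enterocyte-like ratio 0.581. Thinned to 500 UMIs (157 enterocyte-like cells too shallow), 4 were lower, goblet- and tuft- against enterocyte-like cells gave -0.37 and 0.67, levels were 2166 in enterocyte-, 1820 in goblet- and 2821 in cycling-like cells, and ratios 0.592 in enterocyte-, 0.618 in goblet- and 0.552 in Paneth-like cells.

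With the low-depth cluster 0 counted as enterocyte-like (added), medians were 0.21 for progenitor-, -0.29 for goblet-, -0.39 for Paneth- and -0.33 for enteroendocrine-like cells, and enterocyte-like cells had a level of 2289 and a ratio of 0.589. Without clusters of mostly high doublet scores (added), 1 was lower, goblet- against progenitor-like cells gave -0.66 and the goblet-like level was 1805. The ratios in progenitor-, enterocyte-, goblet-, Paneth-, stem- and cycling-like cells were 0.805, 0.652, 0.722, 0.756, 0.794 and 0.809 by structure, 0.541, 0.546, 0.564, 0.579, 0.536 and 0.544 for spans under 20 kb (added), and 0.565, 0.568, 0.577, 0.592, 0.559 and 0.568 without Mrps27 and Mrps9 (added, with 0.558 in enteroendocrine-like cells). With promoter fragments as library size, promoter medians against enterocyte-like cells were 0.079 for progenitor-, 0.034 for goblet-, 0.026 for Paneth-, and 0.11 for enteroendocrine- and tuft-like cells. Of the values of single genes, 196 stayed within their interval, 42 moved beyond it, and 2, those of Mrps36 and Mrpl54, turned sign. A turn of sign was counted only for ratios of at least 1.5-fold whose interval excluded no difference. Smaller ratios that changed sign are among the 196 and the 42. Depth limits single members in the small classes, since 2 members held at least 20 UMIs in each of the 6 classes.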

Other observations

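Of all clusters, the unnamed clusters 0 and 3 had the highest member levels, and the unnamed clusters 4 and 14 lay below cycling-like cells. Cluster 0 (1692 cells, a median of 437 nuclear-encoded UMIs, 89.8% mitochondrial UMIs, with enterocyte markers) stood at 3931 member UMIs per 1000000 nuclear-encoded UMIs (3794 to 4071), with a small to large subunit ratio of 0.51, and its respiratory chain list stood at 20571 and cytosolic ribosomal proteins at 98691. Cluster 3 (737 cells, led by Timeless, Ulbp1, Gm15892, Gm10399 and Vars2) stood at 3331 (3228 to 3436), above cycling-like cells. Its assembly factors stood at 1328 and its translation factors at 705. Cluster 4 (712 cells, led by the gasdermin genes Gsdmc2 and Gsdmc3) stood at 2662 (2594 to 2730) with a respiratory chain list of 11937, and cluster 14 (169 cells with cycling markers and goblet-leading genes) at 2559 (2452 to 2669). The 24 lymphocyte-like cells had 89 member UMIs, 2710 per 1000000 (2176 to 3334). These cells entered none of the comparisons above, apart from the addition of cluster 0 to enterocyte-like cells described under the processing.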
